A study of Mus musculus with 20 samples.

Results

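The second hour of exposure to AICAR was examined in mouse embryonic fibroblasts that lack AMP-activated protein kinase (AMPK), by setting the 3 arrays taken after 2 h in AICAR against the 3 arrays taken after 1 h. These 6 arrays, of 20 in the series, were chosen by the time in their titles. Both groups were Ampkα1/α2 double knockout, SV40-immortalized fibroblasts of the mouse embryo, and both were in 1 mM AICAR. They had been grown at low density in culture dishes, and differed in the labels only in the 2 h or 1 h spent in AICAR. Total RNA was labelled with biotin and hybridised to an Affymetrix mouse array strip. The series follows transcripts over time in AICAR in cells without the catalytic subunits of AMPK, and its arrays at 0 h were not used here. Whether the line is 1 clone, and whether replicates are separate cultures, is not stated in the labels, so the p-values rest on a spread between arrays that may be technical. More hours in AICAR also meant more hours in culture, and these cannot be told apart.

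AICAR is an adenosine analog that enters cells through nucleoside transporters and is phosphorylated by adenosine kinase to ZMP, a mimic of AMP. ZMP is widely used to switch on AMPK, the kinase that senses low cellular energy, and it also acts on other enzymes that bind AMP. In the early hours after a stimulus, unstable transcripts tend to move first, among them those for transcription factors, RNA-binding proteins and signalling inhibitors.

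Values are log2 signals, so a difference of 1 is a 2-fold difference. Of the 12396 genes tested with limma, 79 passed a Benjamini-Hochberg adjusted p of 0.05, which is 0.637% of them. In 72 genes (0.581%) the signal was higher at 2 h than at 1 h, and in 7 genes (0.0565%) it was lower. The rises lay between 0.33 and 1.34 on the log2 scale, with a median of 0.59, or 1.51-fold. The falls lay between -0.32 and -1.03, with a median of -0.65. Rises of at least 2-fold were those of Rbm3, Zfp948 and Zfp866, and Ppp1r10 was the only called gene to fall by as much. When each of 19482 probe sets was tested on its own, 59 were higher (0.303%) and 4 were lower (0.0205%). In all 79 genes the 3 arrays at 2 h did not overlap the 3 arrays at 1 h, which also held for 1481 of all genes tested (11.9%). The median difference over all genes tested was 0.01.

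**Figure D1:**
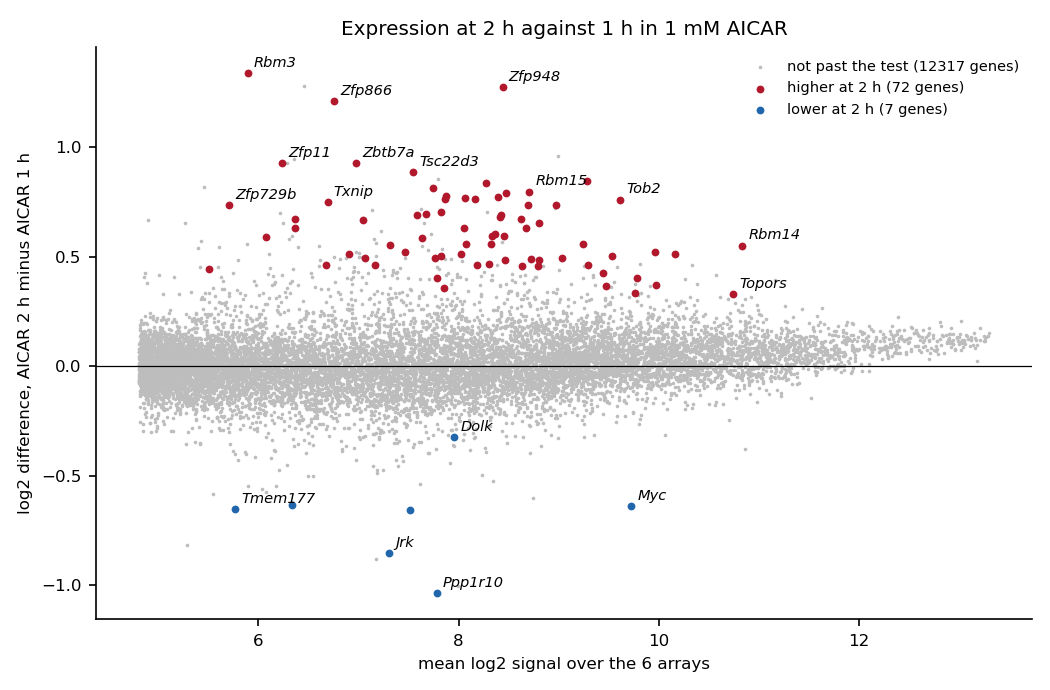
Log2 difference of AICAR 2 h minus AICAR 1 h (vertical axis) against the mean log2 signal over the 6 arrays (horizontal axis), 1 point a gene. The 72 genes higher at 2 h (red) and the 7 lower at 2 h (blue) lie at all but the brightest levels, and among the called genes Rbm3, Zfp948 and Zfp866 have the largest rises.

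Replicate 3 of the 1 h group had a lower top of its signal range than the other 5 arrays, and the results are given with and without it. Its highest signal was 13.1, against 13.4 to 13.5 on the other 5 arrays. It was the lowest 1 h array for 62% of all genes tested and for 53 of the 72 genes that rose (73.6%). Without it 20 genes were higher and 1 was lower at 2 h, and all 21 were among the 79. Replicate 3 of the 2 h group had the highest median signal of these arrays, 5.32, and the narrowest interquartile range, 2.79. It also had the largest mean absolute deviation from its group, 0.123, against 0.0954 for 1 h replicate 3. Without 2 h replicate 3, 35 genes were higher and 3 were lower. With both of these arrays left out, a choice made after seeing the data, Zbtb7a and Zfp97 remained higher and Jrk remained lower. With quantile normalization 81 genes were higher and 23 were lower, and with each array centred on its median 27 were higher and 4 were lower. The part these arrays play in the counts was not tested further.

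The labels were checked first on the deleted kinase genes and on markers of the cells. The Prkaa1 probe set, for the α1 subunit, gave 8.27, 8.22 and 8.34 at 2 h against 8.24, 8.25 and 8.07 at 1 h. Prkaa2, for α2, gave 5.79, 5.43 and 5.77 at 2 h against 5.72, 5.42 and 5.70 at 1 h. Neither passed the test. Where these probes lie relative to the deletions is not stated, so the signals do not check the knockout. Of 10 fibroblast markers, 8 lay above the level of 5.08 that 95% of nonspecific control probe sets stay under, at both times. Vim reached 13.2 at 2 h and 13.0 at 1 h, and Sparc and Fn1 were also bright, while Col1a2 (4.09 at 2 h, 4.20 at 1 h) and Thy1 lay below that level. Markers of other cell types were above it, at both times, in 5 of 8 for epithelium, 2 of 8 for macrophages, 3 of 8 for endothelium, 2 of 5 for fat cells and 7 of 8 for muscle. The brightest of each at 2 h were Krt19 of epithelium (9.68, and 9.80 at 1 h), Lpl of fat cells (8.35, and 8.30 at 1 h), Tnnt2 of muscle (7.76, and 7.86 at 1 h), Egfl7 of endothelium and Cd14 of macrophages (6.15, and 6.30 at 1 h). Epcam and Krt5 were also above it, while Krt8, Cdh1, Ptprc, Lyz2, Cdh5, Vwf, Adipoq and Actc1 were below. The part of such signals in the results was not tested. None of the tested members of the 6 marker lists passed the test.

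The largest rise was in an RNA-binding protein. Rbm3, a cold-inducible RNA-binding protein, had log2 signals of 6.47, 6.16 and 7.05 at 2 h, against 5.51, 5.03 and 5.12 at 1 h. All 3 arrays at 2 h were above all 3 at 1 h, where the signal was close to the nonspecific level and in replicate 2 below it. The mean difference was 1.34 ± 0.24 (SE), or 2.53-fold (limma adjusted p = 0.0126). Rbm15, an RNA-binding component of the machinery that methylates adenosines in mRNA, gave 9.07, 9.06 and 9.18 at 2 h against 8.44, 8.38 and 8.10 at 1 h, a rise of 0.80 ± 0.11 (limma adjusted p = 0.00197). Rbm14, a nuclear coactivator found in paraspeckles, was among the brightest genes that rose, with 11.03, 11.17 and 11.12 at 2 h against 10.67, 10.65 and 10.35 at 1 h. Its 4 other probe sets were all higher at 2 h without overlap of the arrays, by 0.48 to 0.58. These were the 3 called members of the 22 tested genes of the FET and Rbm families, 13.6% of the list against 0.637% of all genes, and 0 fell. The median difference of the list was 0.12. Taf15, a FET protein, gave 8.65, 7.92 and 8.09 at 2 h against 7.69, 7.66 and 6.73 at 1 h, and did not pass (0.86 ± 0.28, limma adjusted p = 0.345). Rbm15 passed when any 1 of the 6 arrays was left out. Rbm3 did not pass without 2 h replicate 3, 1 h replicate 2 or 1 h replicate 3, and its difference over these refits lay between 1.09 and 1.54. Rbm14 passed without 1 h replicate 1 alone among the arrays left out, with a difference of 0.45 to 0.61.

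Pcf11, Clk1, Clk3 and Tob2 also rose. Pcf11, a factor of cleavage at the 3′ end of pre-mRNA, had log2 signals of 8.60, 8.56 and 8.46 at 2 h against 7.80, 7.84 and 7.71 at 1 h, a rise of 0.76 ± 0.13 (limma adjusted p = 0.00892). Its groups were far apart relative to their spread, and a further probe set for Pcf11 was also higher on every 2 h array, by 0.51. Clk1 and Clk3 encode kinases that phosphorylate SR splicing factors, and were the called members of 19 tested SR, hnRNP and Clk genes (10.5%, against 0.637% of all genes), with a list median of 0.08. Clk1 gave 10.38, 10.44 and 10.43 at 2 h against 9.88, 10.10 and 9.73 at 1 h, a difference of 0.51 ± 0.09, and Clk3 rose by 0.47 ± 0.09. Tob2, of the Tob and Btg family that recruits the CCR4-NOT deadenylase, gave 9.92, 10.02 and 10.04 at 2 h against 9.37, 9.12 and 9.21 at 1 h (0.76 ± 0.09, limma adjusted p = 0.000945). It was the only called member of 16 tested genes of mRNA decay (6.25%, against 0.637% of all genes), whose median was 0.09. Of its 4 other probe sets, 3 were higher on every 2 h array and 1 differed by -0.11. Tob2 passed with any 1 array left out. Its value is from an _x_ probe set, and 1 other, shared between transcripts or genes (_s_), passed on its own (0.83, limma adjusted p = 0.00843). With _x_ and _s_ probe sets left out, Tob2 differed by 0.45 and did not pass (limma adjusted p = 0.821). The mean over all of its probe sets did not pass either (0.50, limma adjusted p = 0.0917). Pcf11 did not pass without 1 h replicate 3, Clk1 not without that array, 2 h replicate 2 or 2 h replicate 3 (0.42 to 0.61 over these refits), and Clk3 not without any 1 of the 6 arrays (0.41 to 0.52).

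Genes named Zfp, for zinc finger protein, supplied more rises than any other family counted here. Most encode DNA-binding proteins with tandem zinc fingers, and for many no single role is established. Of 227 tested genes with Zfp and a number as their name, 12 were higher at 2 h (5.29%), against 0.581% of all genes tested, and 0 were lower. Without overlap of the arrays, 57 were higher (25.1%) and 16 were lower (7.05%), against 6.86% and 5.09% of all genes tested. The median difference of the 227 was 0.06, so most members moved little. The count of called members was 7 without 1 h replicate 3 and 1 without both replicate 3 arrays, and 15, beside 1 lower, with quantile normalization. With _x_ and _s_ probe sets left out it was 9 of 218 tested. With names that also carry a letter, a wider set chosen after the values were seen, 15 of 242 rose, Zfp729b, Zfp280b and Zfp955a being the additional ones.

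The largest of these rises was in Zfp948, with 9.06, 9.11 and 9.06 at 2 h against 7.93, 7.99 and 7.49 at 1 h, a difference of 1.28 ± 0.17 (limma adjusted p = 0.00184). The 2 h arrays were nearly equal, and the gap to the highest 1 h array was more than 1 log2 unit. Another, dim probe set of Zfp948 differed by 0.02 with overlapping arrays. The mean over its probe sets passed (0.65, limma adjusted p = 0.00406). Zfp866 gave 7.19, 7.29 and 7.61 at 2 h against 6.53, 6.04 and 5.89 at 1 h, a rise of 1.21 ± 0.15. Zfp97 had tight groups, with 8.74, 8.92 and 8.93 at 2 h against 8.12, 8.08 and 8.02 at 1 h (0.79 ± 0.08, limma adjusted p = 0.0003). Its only probe set, like those of Zfp105 and Zfp729b, is shared between transcripts or genes (_s_). Rises also passed for Zfp11 (0.93), Zfp367 (0.85), Zfp623 (0.84) and Zfp850 (0.81), and, chosen after their values were seen, for Zfp51, Zfp105, Zfp574, Zfp763 and Zfp9, at 0.59 to 0.71. Zfp948, Zfp866, Zfp97, Zfp367, Zfp623, Zfp51, Zfp574 and Zfp280b passed with any 1 of the 6 arrays left out, whereas Zfp11, Zfp850, Zfp105, Zfp763, Zfp9, Zfp729b and Zfp955a did not. Zfp267, also singled out after its values were seen, differed by as much as Zfp948 (1.28 ± 0.29) without passing (limma adjusted p = 0.0708).

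The start regions of 2 zinc finger genes that rose are shown as examples that differ in base composition. Each runs from 250 bases before to 50 bases after the annotated start (RefSeq, GRCm38.p6). Zbtb7a lies at chr10:81136021-81136320 and Zfp948 at chr17:21566728-21567027, both on the plus strand. Capitals mark the GC box, GGGCGG, and the half-palindrome of the cyclic AMP response element, TGACGT, on either strand.
Zbtb7a: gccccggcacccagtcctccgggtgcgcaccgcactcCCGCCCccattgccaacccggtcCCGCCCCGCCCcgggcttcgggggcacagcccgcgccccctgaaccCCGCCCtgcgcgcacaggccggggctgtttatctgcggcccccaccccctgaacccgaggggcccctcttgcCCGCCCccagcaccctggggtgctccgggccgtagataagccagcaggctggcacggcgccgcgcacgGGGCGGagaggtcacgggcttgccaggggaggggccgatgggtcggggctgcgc
Zfp948: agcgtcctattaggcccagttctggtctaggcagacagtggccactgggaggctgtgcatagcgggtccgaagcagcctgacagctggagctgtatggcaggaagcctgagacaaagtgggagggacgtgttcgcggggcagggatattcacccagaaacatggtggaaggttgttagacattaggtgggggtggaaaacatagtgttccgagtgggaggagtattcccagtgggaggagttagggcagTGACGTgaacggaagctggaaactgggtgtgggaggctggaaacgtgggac
The Zbtb7a stretch holds 6 GC boxes and is 77.7% G and C, and the Zfp948 stretch holds 1 TGACGT and no GC box at 57.0% G and C. These matches describe letters and are not evidence of binding.

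Zbtb7a, which encodes a zinc finger repressor with a BTB domain, had the smallest adjusted p of all genes tested. Its log2 signals were 7.43, 7.49 and 7.41 at 2 h against 6.65, 6.39 and 6.51 at 1 h, a rise of 0.93 ± 0.09, or 1.90-fold (limma adjusted p = 0.000166). Both groups were tight and lay far apart, and the difference stayed between 0.87 and 1.00 with any 1 array left out. Its 2 other probe sets were dimmer and overlapped between the groups, with differences of 0.98 and 0.08, and the mean over all of its probe sets did not pass (0.66, limma adjusted p = 0.42). Zbtb43 rose by 0.78 ± 0.12 and Zbtb34, chosen after its values were seen, by 0.67 ± 0.12. Other, dimmer probe sets of these genes differed by 0.03 and 0.09 with overlapping arrays. The means over their probe sets passed (0.41, limma adjusted p = 0.0323, and 0.38, limma adjusted p = 0.033). Zbtb43 did not pass without 1 h replicate 3, nor Zbtb34 without that array, 1 h replicate 2 or 2 h replicate 3. Zbtb7a, Zbtb43 and Zbtb34 were the 3 called genes of 33 tested whose name is Zbtb and a number, with or without a letter. They are 9.09% of that set, which was counted after the values were seen, against 0.581% of all genes tested. In the set 0 were lower.

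**Figure D2:**
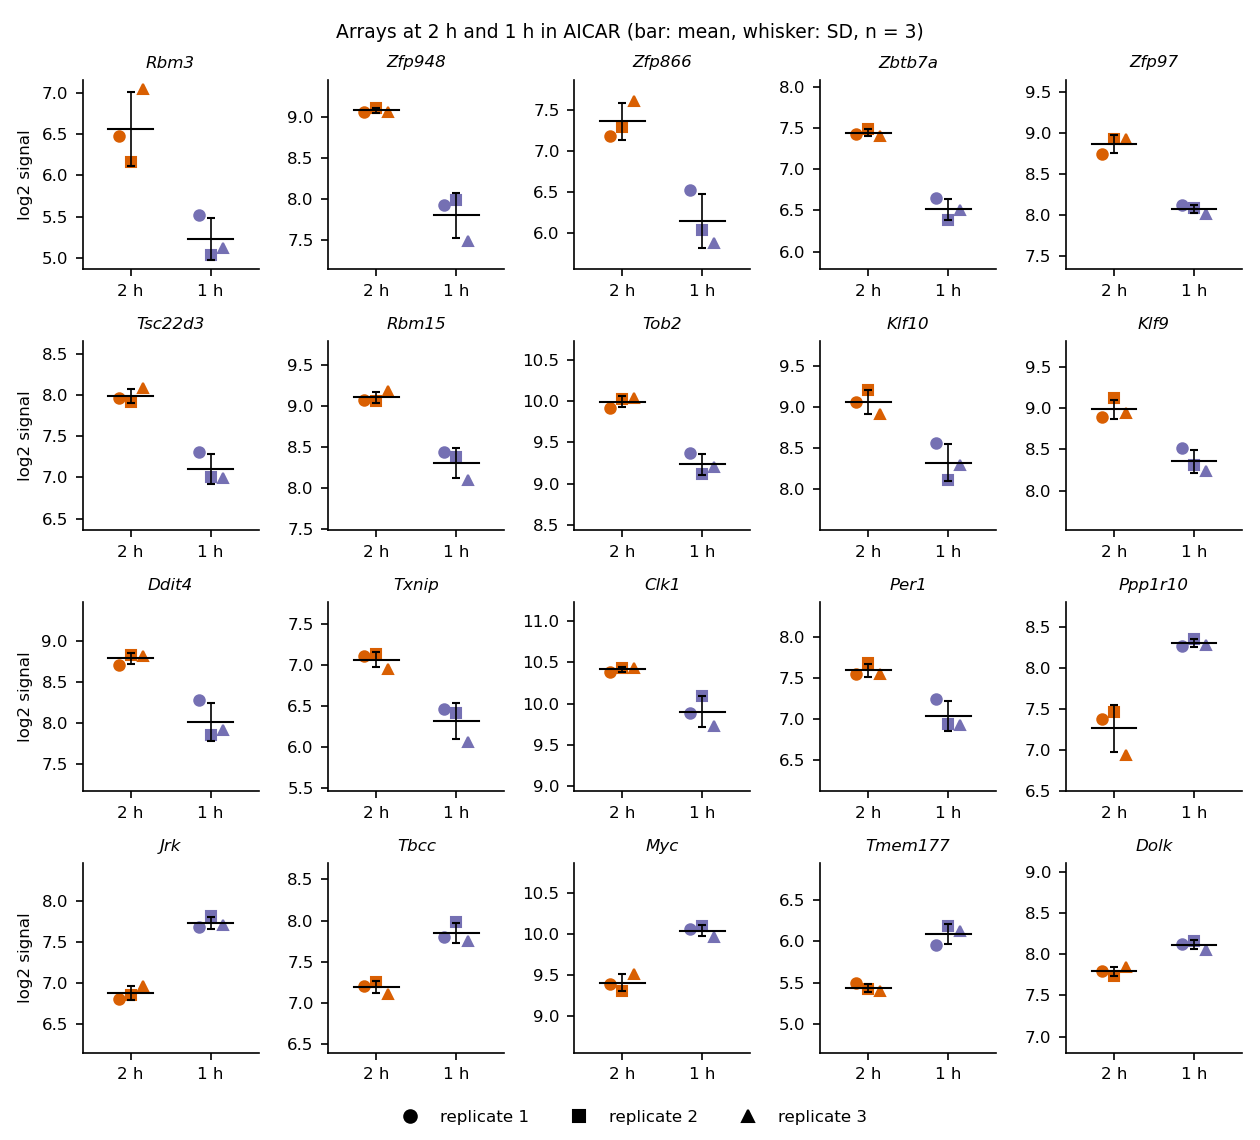
Log2 signal on each array for 14 genes that were higher and 6 that were lower at 2 h, with AICAR 2 h left and AICAR 1 h right in each panel; every panel spans the same range, bars are means and whiskers are SDs (n = 3). The groups do not overlap in any panel, and the 1 h replicate 3 array (violet triangle) is often the lowest of its group among the genes that rose.

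Immediate early genes, which respond to growth factors and stress without new protein synthesis, did not move together. Of 26 tested members 3 were higher and 1 was lower (15.4% called, against 0.637% of all genes), and the median was 0.08. The 3 that rose are Krüppel-like factors, zinc finger transcription factors that respond to many stimuli. Klf10, an early target of TGF-β, had 9.06, 9.20 and 8.91 at 2 h against 8.56, 8.12 and 8.29 at 1 h, a rise of 0.74 ± 0.13 (limma adjusted p = 0.0106). Klf6 rose by 0.52 ± 0.10 and Klf4 by 0.46 ± 0.10. All 12 tested genes with Klf and a number as their name were counted after the values were seen. Among them 5 rose (41.7%, against 0.581% of all genes tested) and 0 fell. The other two were Klf9, at 8.89, 9.12 and 8.94 at 2 h against 8.51, 8.31 and 8.24 at 1 h (0.63 ± 0.10), and Klf16 (0.49 ± 0.08). Their relatives Klf2, Klf13, Klf11, Klf5, Klf12, Klf1 and Klf3 did not pass, at -0.11 to 0.33. Klf16 passed with any 1 array left out, and the other 4 did not pass without 1 h replicate 2 or without 1 h replicate 3. In all, Klf10 and Klf9 lost the call in 3 of the 6 refits, Klf6 in 4 and Klf4 in 5. Over these refits Klf10 differed by 0.63 to 0.86. Klf10 and Klf16 have 1 probe set each. Among other probe sets above the filter cutoff, Klf4 differed by 0.39, Klf6 by 0.80 and 0.38, and Klf9 by 0.49 and 0.01. Only that at 0.80 had arrays that did not overlap. The means over all probe sets did not pass for Klf4 (0.42, limma adjusted p = 0.552), Klf6 (0.57, limma adjusted p = 0.899) or Klf9 (0.33, limma adjusted p = 0.29). Egr1, the zinc finger factor often used as the marker of this class, gave 8.54, 8.49 and 9.001 at 2 h against 8.99, 8.87 and 8.82 at 1 h, so its groups overlapped (-0.22 ± 0.15, limma adjusted p = 0.899).

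Myc was the immediate early gene that fell. This growth-promoting factor pairs with Max to activate transcription, and its log2 signals were 9.39, 9.30 and 9.51 at 2 h against 10.06, 10.10 and 9.96 at 1 h. Every 2 h array lay below every 1 h array, and the difference was -0.64 ± 0.11 (limma adjusted p = 0.0101). Mnt, a Max-binding repressor that opposes Myc, moved the other way, with 8.47, 8.54 and 8.33 at 2 h against 7.79, 7.66 and 7.59 at 1 h (0.77 ± 0.11, limma adjusted p = 0.00336). Myc has a single probe set here, and a second, dim probe set of Mnt differed by -0.04. Mnt passed with any 1 array left out, and Myc did not without 2 h replicate 2, 1 h replicate 2 or 1 h replicate 3, with differences of -0.69 to -0.59 over these refits.

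The growth and nutrient regulators Txnip, Ddit4 and Fnip1 rose, each from a list with 1 called member. Tsc22d3, which is in none of the lists, also rose. Txnip, an arrestin-like protein that binds thioredoxin and limits glucose uptake, had 7.11, 7.13 and 6.96 at 2 h against 6.46, 6.42 and 6.06 at 1 h, a rise of 0.75 ± 0.14 (limma adjusted p = 0.0142). Its groups were separate, but its other, dimmer probe set differed by 0.11 with overlap, and the call was lost without 2 h replicate 1, 2 h replicate 2 or 1 h replicate 3, at 0.63 to 0.82 over these refits. It was the only called member of 7 tested genes around the glucose sensor MondoA (14.3%, against 0.637% of all genes). Ddit4, an inhibitor of the growth kinase complex mTORC1, gave 8.71, 8.83 and 8.82 at 2 h against 8.27, 7.85 and 7.91 at 1 h (0.77 ± 0.14, limma adjusted p = 0.0142). It was the only called member of 24 tested genes of the ATF4 stress response (4.17%), whose median was 0.01. Ddit4 did not pass without 2 h replicate 2, 2 h replicate 3, 1 h replicate 2 or 1 h replicate 3. Over these refits it differed by 0.69 to 0.90. Another member, Chac1, a glutathione-degrading enzyme, lay lower on every 2 h array (7.38, 7.61 and 7.48) than on any 1 h array (8.36, 8.60 and 8.52), yet its difference of -1.004 ± 0.27 did not pass (limma adjusted p = 0.171). The fit pools the spread over 6 times, and the SD of Chac1 was 0.86 at 4 h. Tsc22d3, a leucine zipper protein induced by glucocorticoids, gave 7.96, 7.92 and 8.09 at 2 h against 7.31, 7.01 and 6.99 at 1 h. Its rise of 0.89 ± 0.11 (limma adjusted p = 0.000889) passed with any 1 array left out. Other probe sets of Tsc22d3 differed by 0.56 (higher on every 2 h array) and by 0.0006 (overlapping), and neither passed on its own. The mean over all of its probe sets passed narrowly (0.48, limma adjusted p = 0.0455). Fnip1, a partner of folliculin, rose by 0.37 ± 0.07. It was the only called member of 15 tested genes of the folliculin and TFEB pathway (6.67%). The difference of 0.37 is from a probe set shared between transcripts or genes (_s_). Its other probe sets differed by 1.19 (higher on every 2 h array) and 0.62 (overlapping), and with _x_ and _s_ probe sets left out Fnip1 differed by 1.19 and did not pass (limma adjusted p = 0.737). The call was lost in 5 of the 6 refits without 1 array.

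The clock list had 2 called members of 14 (14.3%, against 0.637% of all genes), Per1 and Cry2, both repressors in the circadian feedback loop. Per1 gave 7.55, 7.68 and 7.55 at 2 h against 7.25, 6.95 and 6.92 at 1 h (0.55 ± 0.11), and Cry2 rose by 0.51 ± 0.10. Per1 did not pass in 5 of the 6 refits that leave out 1 array, nor Cry2 in 4 of them, and without 1 h replicate 3 neither did. Skil, Amotl2 and Dnajb9 also rose, each as the single called member of its list. Skil, a repressor of SMAD signalling, rose by 0.40 ± 0.08, of 14 tested TGF-β and BMP genes (7.14%). Amotl2, an angiomotin-like protein that binds YAP, rose by 0.37 ± 0.08, of 10 tested YAP targets (10%). Dnajb9, a co-chaperone of the endoplasmic reticulum, rose by 0.51 ± 0.10, of 14 tested chaperone genes (7.14%). Skil and Dnajb9 each lost the call in 4 of the 6 refits without 1 array (without 2 h replicate 2, 2 h replicate 3, 1 h replicate 2 or 1 h replicate 3), and Amotl2 in 5, all but that without 2 h replicate 2.

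The start region of Txnip, the best known MondoA target among the genes that rose, is shown beside those of 2 genes that fell. Txnip lies at chr3:96557707-96558006, Ppp1r10 at chr17:35916946-35917245 (the first of 2 listed starts) and Tbcc at chr17:46890371-46890670, all on the plus strand (RefSeq, GRCm38.p6, from 250 bases before to 50 after the start). Capitals mark the GC box GGGCGG, the CCAAT box, the TATA box TATAAA and TGACGT on either strand.
Txnip: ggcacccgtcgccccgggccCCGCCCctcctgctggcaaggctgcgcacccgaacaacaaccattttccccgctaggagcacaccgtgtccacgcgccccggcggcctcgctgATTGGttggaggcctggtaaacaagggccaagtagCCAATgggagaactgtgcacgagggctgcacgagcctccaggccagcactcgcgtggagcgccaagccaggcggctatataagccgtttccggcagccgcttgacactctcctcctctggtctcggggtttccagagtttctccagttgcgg
Ppp1r10: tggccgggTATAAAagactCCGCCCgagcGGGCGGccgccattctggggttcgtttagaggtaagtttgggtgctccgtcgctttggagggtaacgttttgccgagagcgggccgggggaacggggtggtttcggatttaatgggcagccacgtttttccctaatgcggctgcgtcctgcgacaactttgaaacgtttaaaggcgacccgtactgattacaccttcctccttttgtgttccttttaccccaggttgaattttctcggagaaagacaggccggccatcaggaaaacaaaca
Tbcc: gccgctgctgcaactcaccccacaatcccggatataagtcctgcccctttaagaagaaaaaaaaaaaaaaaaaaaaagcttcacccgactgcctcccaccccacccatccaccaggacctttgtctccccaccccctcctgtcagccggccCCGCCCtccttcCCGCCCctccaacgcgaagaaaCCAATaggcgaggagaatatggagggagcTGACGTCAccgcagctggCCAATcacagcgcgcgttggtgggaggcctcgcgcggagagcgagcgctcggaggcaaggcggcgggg
The Txnip stretch holds 2 CCAAT boxes and 1 GC box, the Ppp1r10 stretch 1 TATA box and 2 GC boxes, and the Tbcc stretch 2 CCAAT boxes, 2 GC boxes and 2 matches to TGACGT that overlap on opposite strands.

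The largest fall was in Ppp1r10, which encodes PNUTS, the nuclear subunit that directs protein phosphatase 1 to RNA polymerase II. Its log2 signals were 7.38, 7.47 and 6.94 at 2 h against 8.26, 8.35 and 8.28 at 1 h, a difference of -1.03 ± 0.17 (limma adjusted p = 0.00888). The 2 h arrays all lay well below the lowest 1 h array. Its other probe set was also lower on every 2 h array, by -1.23. It was the only called member of 20 tested genes of transcription elongation control (5%, against 0.637% of all genes). In that list Ccnt1, the cyclin of the elongation kinase P-TEFb, was chosen after its values were seen. Ccnt1 lay higher without passing (0.72 ± 0.17, limma adjusted p = 0.083). Without 1 h replicate 2 or 1 h replicate 3 the call on Ppp1r10 was lost, and its difference lay between -1.14 and -0.87 with any 1 array left out.

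The other 6 genes that fell have unlike functions. Jrk, a nuclear DNA-binding protein, gave 6.81, 6.86 and 6.97 at 2 h against 7.68, 7.81 and 7.70 at 1 h, and its fall of -0.85 ± 0.09 (limma adjusted p = 0.000393) was the only one of the 7 to pass with any 1 array left out. Tbcc, a cofactor of tubulin folding, gave 7.21, 7.26 and 7.11 at 2 h against 7.80, 7.98 and 7.75 at 1 h (-0.66 ± 0.12, limma adjusted p = 0.019). Dolk, the kinase that makes dolichol phosphate for glycosylation, fell by only 0.32 on the log2 scale, with SDs of 0.05 at 2 h and 0.06 at 1 h. Tmem177, a mitochondrial membrane protein, fell by 0.65 and Jmjd4, a jumonji-domain hydroxylase, fell by 0.63. The 2 h mean of Tmem177 was 5.44, near the nonspecific level. The other probe sets of Jrk, Tbcc and Tmem177 were dim, at 5.2 to 5.5, and differed by -0.04, -0.11 and 0.02 with overlapping arrays. Nabp1, a single-stranded DNA-binding protein, lay lower on every 2 h array (6.64, 6.76 and 6.80) than at 1 h (7.50, 7.68 and 7.66), and its difference of -0.88 ± 0.25 did not pass (limma adjusted p = 0.206).

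Several groups that might respond to AICAR, ZMP or energy stress had no called member. At the 0.637% called over all genes tested, 0 is also the usual count for lists of these sizes, so these counts show nothing particular to the groups. They were the 18 tested genes of purine synthesis and AICAR handling, the 18 of AMPK and related kinases, the 21 of glycolysis and hypoxia, the 12 of heat shock, the 15 of p53 targets, the 10 of NRF2 targets, the 18 of NF-κB and inflammation, the 19 of ERK feedback, the 13 of the Hippo core, the 8 of O-GlcNAc cycling and the 14 of interferon. Adk, adenosine kinase, gave 11.47, 11.58 and 11.51 at 2 h against 11.52, 11.48 and 11.31 at 1 h, with overlap. Lats1 and Lats2, kinases of the Hippo core, differed by 0.14 ± 0.08 and 0.24 ± 0.15 at their brightest probe sets. Another probe set of Lats1 differed by 0.47, and others of Lats2 by 0.58, 0.48 and 0.06. Those at 0.47, 0.58 and 0.48 were higher on every 2 h array, and none passed on its own. The inflammatory list had the lowest median of these lists, -0.12, and in it Tnfaip3, a deubiquitinase that restrains NF-κB, lay lower on every 2 h array without passing (-0.40 ± 0.14). Dusp1, the phosphatase of the ERK feedback list, lay higher on every 2 h array and did not pass either (0.38 ± 0.14).

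The small upward shifts of the groups below were smaller without 1 h replicate 3 and also with quantile normalization. The part of each was not tested. The downward median of the inflammatory list was larger with quantile normalization, at -0.15 against -0.12 in the main fit. Over all genes tested the median was -0.03 with quantile normalization and 0.01 in the main fit. Of 61 tested ribosomal protein genes, 60 were positive with a median of 0.11, and 0 passed the test. Without 1 h replicate 3, 22 of 61 were positive and the median was -0.01, and with quantile normalization 19 were positive at -0.01. The cholesterol synthesis list had the highest median of the lists, 0.20 over 15 genes, with Insig1 (0.40 ± 0.12) and Stard4 (0.29 ± 0.09) not passing. Its median was 0.11 without 1 h replicate 3 and 0.14, with 12 genes positive, under quantile normalization. The G2/M list had 18 of 19 genes positive, 10 of 19 without 1 h replicate 3 and 11 of 19 with quantile normalization.

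**Figure D3:**
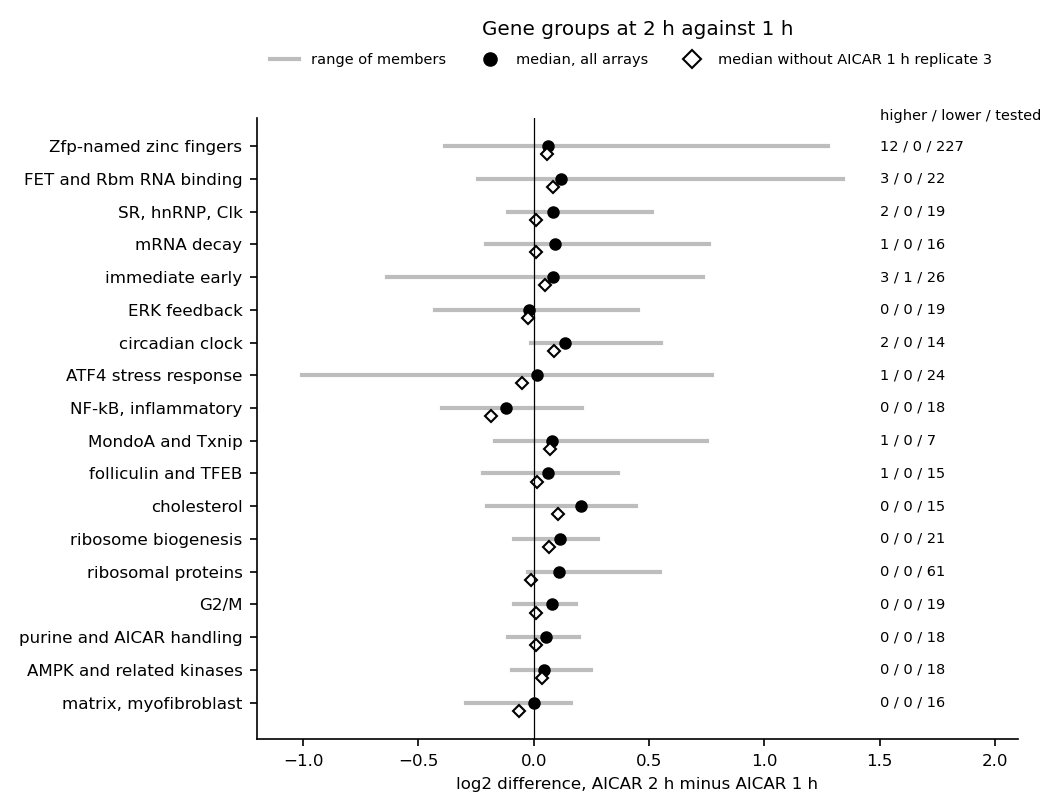
Log2 difference of AICAR 2 h minus AICAR 1 h for 18 gene groups: grey bars span the members, filled circles are medians over all arrays, open diamonds are medians without the 1 h replicate 3 array, and the numbers give members higher, lower and tested. The Zfp-named group has 12 members higher of 227, and the median of the ribosomal proteins is 0.11 with all arrays and -0.01 without 1 h replicate 3.

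The later times describe where the genes went after 2 h, with no test. Among the 72 genes that rose, the highest mean from 2 h on was at 4 h in 42, at 24 h in 18, at 2 h in 9, at 8 h in 2 and at 12 h in 1. Mnt was among those highest at 2 h, with means of 7.68, 8.45, 7.93, 7.29, 7.39 and 7.38 at 1, 2, 4, 8, 12 and 24 h. Rbm14 was highest at 4 h (11.39) and was 9.55 at 24 h, below its 1 h mean of 10.56. Rbm3, Tsc22d3 and Txnip were highest at 24 h, with means of 7.64, 8.70 and 8.66. Klf4 was the gene highest at 12 h, with 10.53 against 8.56 at 1 h. Of the 7 genes that fell, 5 were lowest at 4 h, among them Ppp1r10 and Tbcc, whose means were 6.34 and 6.56 at 4 h and 7.71 and 7.69 at 8 h. Myc was lowest at 24 h, with 8.88, and its mean at 4 h was 9.72.

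**Figure D4:**
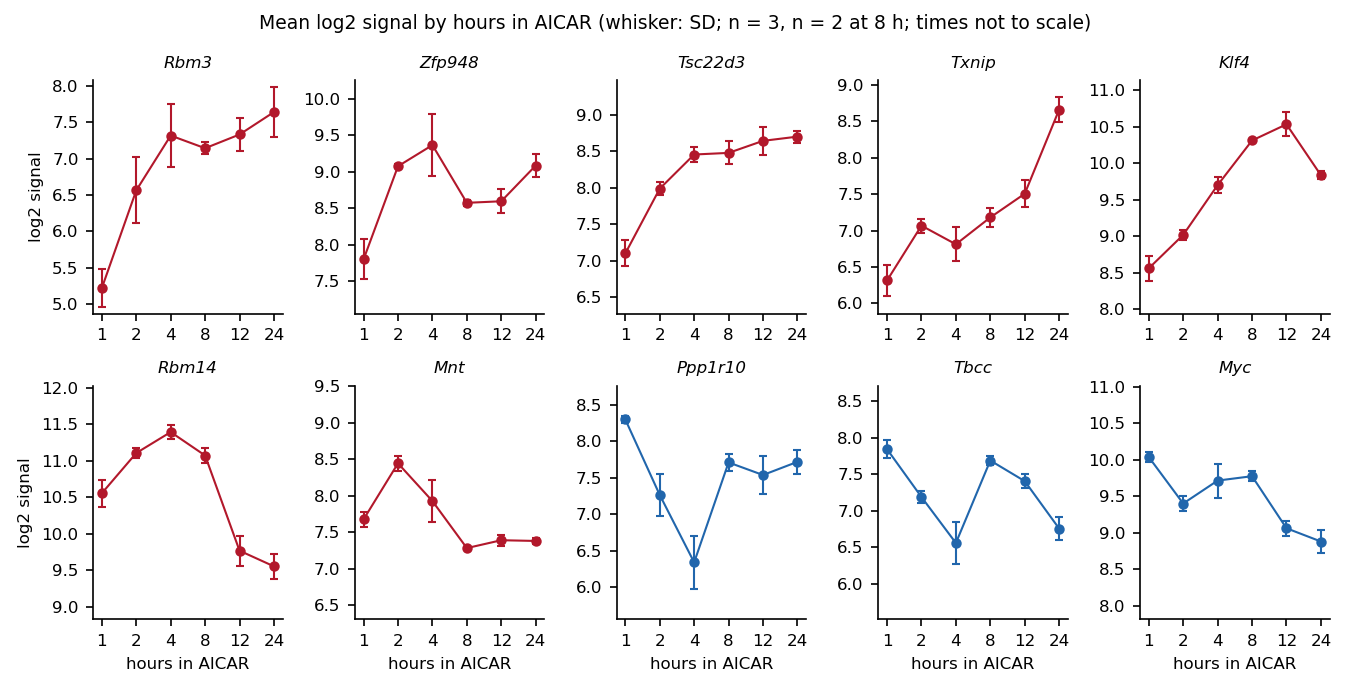
Mean log2 signal by hours in AICAR for 7 genes that were higher and 3 that were lower at 2 h than at 1 h; whiskers are SDs (n = 3, and n = 2 at 8 h), the times are evenly spaced and not to scale, and every panel spans the same range. Mnt peaks at 2 h and Rbm14 at 4 h, Txnip is highest at 24 h, and Ppp1r10 and Tbcc reach low points at 4 h.

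The promoters of the genes that rose had a higher median share of G and C than those of all genes tested. Of the 72, 58 have an entry in the promoter table, as do 5 of the 7 genes that fell and 9977 of all genes tested. The median share of G and C was 64.3% for the genes that rose, against 60.3% for all genes tested. The GC box GGGCGG was present in 77.6% of them against 61.7% of all genes tested, and the CCAAT box in 53.4% against 38.4%. The TATA box TATAAA was present in 3.45% against 8.03%, the E-box CACGTG in 10.3% against 9.98%, TGACGT in 12.1% against 11.5% and the AP-1 motif TGANTCA in 3.45% against 5.14%. All 5 promoters of genes that fell held a GC box. Both strands were searched, motifs could overlap, and these shares are descriptions with no test.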

How the data were processed

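Per the labels' protocols, total RNA was biotin-labelled as cRNA for Affymetrix MG-430 PM array strips. The authors deposited a table of log2 signals for 45141 probe sets on 20 arrays; background correction, summarisation and normalization are not given in the sources used, and the log2 scale was taken from the range of the values (3.06 to 13.5). Array medians differed by 0.159, so values were used as deposited.

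Of 28898 probe sets with 1 gene symbol in the platform annotation, 1 was kept for each of 17097 genes, by the highest mean over the 17 AICAR arrays. Genes whose mean over the 6 arrays was not above the 40th percentile (4.81) were left out, 4701 in all. limma 3.58.1 in R 4.3.3 fitted 1 mean for each of the 6 times over the 17 arrays (lmFit, eBayes, 11 residual degrees of freedom), and 2 h minus 1 h was tested with Benjamini-Hochberg adjustment over 12396 genes at 0.05. The fit was tested on simulated data with noise drawn separately for each gene and array. That check cannot speak to deviations shared by the genes of an array, because the simulated data hold none. Python 3.11.15 and matplotlib 3.10.9 drew the figures. The number of arrays limits the precision.

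Named genes are the 15 largest rises and all falls past the threshold with arrays that do not overlap, up to 4 called members of each of 38 gene lists (in lists with none, the 2 of largest t, given as values), and 12 fixed genes; others are said to be chosen after their values were seen. The members and lists were chosen with earlier results of these data known. Same-numbered arrays correlated in their deviations by 0.40, 0.06 and 0.32. Replicates 1 and 3 were best partners of their own number across the 2 times, and replicate 2 was not. The main fit did not pair the arrays, and the replicate as a block was an alternative. Alternatives were quantile normalization, median centring, other filters, other choices of probe set, variance and weights, other sets of arrays in the fit, stricter thresholds, the interquartile range as a covariate, the replicate block and leaving out each array.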

Additional observations from a re-analysis of the deposited data

How the results depend on the processing

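The 79 calls (72 higher, 7 lower) moved in both directions with the choice of arrays, scaling, weights, covariates and thresholds. Leaving out each array in turn gave 21 to 80 calls, with 20 to 75 higher and 1 to 5 lower. Without the replicate 3 arrays of both times, chosen after seeing the data, there were 3 (2 higher, 1 lower). Median centring gave 31 (27 and 4), and quantile normalization gave 23 lower beside 81 higher. Array weights gave 162 (123 and 39), the interquartile range as a covariate 181 (148 and 33), and the 6 arrays alone 13 lower. The mean of all probe sets and each probe set on its own gave 4 lower each. An adjusted p of 0.01 left 32 (30 and 2), and a 2-fold minimum left 4 (3 and 1). The correlations of deviations between same-numbered arrays were 0.40, 0.06 and 0.32. The best partner had the same number for replicates 1 and 3, and not for replicate 2. With the replicate block there were 127 calls (112 and 15), among them all 79. The causes were not tested. Of 36 called genes named by the rule, 14 passed under every alternative that kept all arrays and 11 with any 1 array left out; over 754 refitted values, 575 stayed past the threshold, 179 did not and 0 changed direction. Of 56 other probe sets of called genes above the cutoff, 48 had the same sign, 18 had arrays apart in the same direction and 4 passed on their own. The smallest called difference was -0.32.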

Other observations

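Further genes that rose belong to no list used above and were chosen after their values were seen. Sertad3, a SERTA-domain regulator of transcription, gave 7.79, 8.06 and 8.19 at 2 h against 7.37, 7.31 and 7.28 at 1 h (0.69 ± 0.09, limma adjusted p = 0.00137). Mef2d, a MADS-box factor of muscle and neurons (0.49 ± 0.07), Epc1, a subunit of a histone acetyltransferase complex (0.60 ± 0.09), and Trmt10c, a subunit of mitochondrial RNase P (0.56 ± 0.08), rose and, like Sertad3, passed with any 1 array left out. Other probe sets of Mef2d and Epc1 both differed by -0.07 with overlapping arrays, and the means over their probe sets did not pass (0.21, limma adjusted p = 0.322, and 0.27, limma adjusted p = 0.415). Wee1, the kinase that holds back entry into mitosis, gave 8.79, 8.88 and 8.90 at 2 h against 8.57, 8.28 and 8.35 at 1 h (0.46 ± 0.09), and E2f3, an S-phase factor, rose by 0.69 ± 0.13. The calls on Wee1 and E2f3 were each lost in 5 of the 6 refits that leave out 1 array, all but that without 1 h replicate 1, and 0 of 20 tested genes of S phase passed the test.

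Probe sets with no single gene symbol were also tested. Of 7638 above the cutoff, 12 were higher and 1 was lower at 2 h, and they are not named here.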
